A study of Mus musculus with 12 samples.

Results

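RNA recovered with the U1 small nuclear ribonucleoprotein (U1 snRNP) was compared with total RNA of the same lysates in unstimulated mouse brain. The comparison uses 6 of the 12 libraries of the series: 3 input libraries and 3 U1 libraries, joined by their sample names into lysates 1, 2 and 3. All animals were male C57BL6JL mice aged 3 to 5 months, and the tissue was mixed cortex and hippocampus. The 3 lysates used here came from naive animals, which were handled alongside the stimulated ones. The other 6 libraries came from animals killed 90 min after maximal electroconvulsive stimulation (MECS), 85 mA for 1 s. Homogenized tissue was irradiated with ultraviolet light at 400 mJ/cm2, which links RNA to the proteins it touches. Input RNA was set aside from the lysate, and the remainder was precipitated with an antibody to U1-70K, a protein of the U1 snRNP. No library is a precipitate made with a control antibody, so a higher value in U1 than in input cannot be told apart from other differences in recovery. No source used here says whether a lysate holds 1 animal or several pooled ones. The p-values rest on how far the difference between U1 and input varied over these lysates. That variation was estimated in part across genes.

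The U1 snRNP is a complex of the U1 small nuclear RNA with U1-70K, other specific proteins and the Sm proteins. The 5′ end of the U1 RNA pairs with the 5′ splice site, the boundary between an exon and the intron after it, and this starts assembly of the spliceosome. U1 also sits on cryptic sites within introns and restrains cleavage and polyadenylation there, which protects long transcripts from ending early. Its targets are therefore mainly nuclear precursor RNAs, whereas mature mRNAs, which have lost their introns, and transcripts of the mitochondrial genome are found outside the nucleus.

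Reads were counted per annotated gene, called a feature here. Gene counts ranged from 704432 in input 2 to 1962312 in U1 2, which is 1.51 to 1.84% of the reads listed for the naive libraries. Reads in no feature made up 88.3 to 91.3%. Features with no gene on the other strand held 13.8 ± 0.92% of the input gene counts (SD, n = 3), so most counts lay where genes overlap. The library kit keeps the strand of the RNA, but no source used here says which strand was counted. Each feature was therefore also described by its host: the only opposite-strand gene that holds at least 50% of its exon bases, with no more than 10% in any other. An exon feature has at least 80% of that overlap in exons of the host, an intron feature at least 80% in introns, and the rest are called mixed. A host is put in the exon or intron class where at least 80% of its counts come from features of that class, so it can hold features of another class too, and is otherwise mixed. A value given for a host is the sum over the features under it, read as its RNA only if the counting used the opposite strand. A value given for a feature stands under its own annotated symbol, and is that gene's RNA only if its own strand was counted. Malat1 had 364 to 1689 counts a naive library by own symbol and 7618 to 57028 as a host, and Actb had 8 to 39 by own symbol. For Slc1a2 the input mean was 190 CPM by own symbol and 5196 CPM as a host. The strand behind own-symbol values was not tested, so no own-symbol value below is shown to be the RNA of the gene named. CPM are counts relative to the scaled gene counts of a library.

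Of 3087 hosts with enough counts to be tested, 231 were higher in U1 RNA and 301 lower (17.2% called, 7.48% higher and 9.75% lower). The test was edgeR's quasi-likelihood test with the lysate as a block and Benjamini-Hochberg adjustment at 0.05, and 832 hosts had an unadjusted p under 0.05. Of 10918 features, 396 were higher and 647 lower (9.55% called, 3.63% higher and 5.93% lower), with 2279 at an unadjusted p under 0.05. Of the feature calls, 37.97% were upward, against 48.2% when libraries were scaled by their size alone. Of the host calls, 43.4% were upward, against 53.3% by library size. The number of features called fell to 566 without lysate 1 and was 1063 and 737 without lysates 2 and 3. DESeq2 called 628 features and 334 hosts. In 510 hosts (16.5%) all 3 U1 values lay above all 3 input values, and in 459 (14.9%) all lay below.

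Genes of blood vessel walls were higher in U1 RNA. Of the 24 smooth muscle and pericyte genes listed, 6 were tested as hosts, and 5 of these were higher (Tagln, Pln, Mylk, Notch3 and Tbx18), with a median log2 change of 2.1 over the 6. The median over all hosts tested was 0.04, and 7.48% of them were higher. All 4 of the endothelial genes tested as hosts were higher (Nos3, Lef1, Abcb1a and Slc2a1), with a median of 1.21. Of 4 fibroblast and meningeal genes tested, Col4a2 was higher (0.93, SE 0.24), though not in DESeq2, and the median was 0.56.

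Tagln encodes transgelin, an actin-binding protein of smooth muscle (chromosome 9, 45929619 to 45936058, minus strand; GRCm38). Its feature had 138, 114 and 208 CPM in input 1, 2 and 3 and 930.1, 825 and 1585 CPM in U1 1, 2 and 3. Every U1 value lay above every input value, and the U1 value of lysate 3 was the highest. The log2 change was 2.85 (SE 0.16), a 7.2-fold difference, with adjusted p = 1.71e-22 by edgeR's quasi-likelihood test. In the fit of features, the same counts gave adjusted p = 5.69e-09 by that test, so the size of p depends on the fit. Pln, the gene of phospholamban, which restrains the calcium pump of muscle (chromosome 10, 53337667 to 53345987, plus strand), had 29.1, 16.5 and 29.5 CPM in the inputs and 143, 121 and 161 CPM with U1. The log2 change was 2.49 (SE 0.23), again with no overlap between the groups. Mylk encodes myosin light chain kinase, which triggers smooth muscle contraction (chromosome 16, 34745210 to 35002420, plus strand). Its 2 intron features together had 61.7, 49.4 and 71.3 CPM in the inputs and 268, 263 and 410.2 CPM with U1, a log2 change of 2.35 (SE 0.18). As for Tagln, lysate 3 gave the highest U1 value.

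Notch3, a receptor of mural cells, had 103, 86.8 and 137 CPM in the inputs and 321, 314 and 552 CPM with U1, a log2 change of 1.84 (SE 0.16). Tbx18, a transcription factor gene of pericytes and smooth muscle, rose from 19.4 to 27.9 CPM in the inputs to 61.2 to 116 CPM with U1 (1.78, SE 0.25). Abcc9, the sixth host of the list and a subunit of potassium channels in pericytes, did not pass the test (0.53, SE 0.28), and its groups overlapped. The features annotated as Tagln and Notch3 themselves, on the other strand from those above, changed less. The feature Tagln did not pass (0.21, SE 0.19), and the feature Notch3 rose by 0.60 (SE 0.16). Read by the features' own symbols, 14 of the 24 smooth muscle and pericyte genes were tested and 3 were higher: Myh11, the heavy chain of smooth muscle myosin (2.42, SE 0.50), Rgs5, a pericyte regulator of G protein signalling (2.33, SE 0.59), and Notch3. Myh11 had 5.29, 2.99 and 4.65 CPM in the inputs and 16.6, 16.1 and 39.5 CPM with U1, and it lost its call without lysate 3. Rgs5 lost its call in DESeq2 and without lysate 1, and the feature Notch3 in DESeq2, under both other filters on low counts and without lysate 1 or 3, so none of the 3 held under every alternative.

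In endothelial cells, Nos3 encodes the nitric oxide synthase that relaxes vessels. Its feature had 235, 272 and 264 CPM in the inputs and 622, 716 and 1156 CPM with U1 (1.65, SE 0.16). Lef1, a transcription factor of the Wnt pathway that maintains the blood-brain barrier, had 216, 185 and 236 CPM in the inputs and 513, 582 and 851 CPM with U1 (1.59, SE 0.16). The barrier's drug exporter gene Abcb1a changed by 0.84 (SE 0.16) and its glucose transporter gene Slc2a1 by 0.75 (SE 0.16). Slc2a1 lost its call without lysate 3. Read by own symbol, 10 endothelial genes were tested, all 10 had a positive change, and 1 passed, Flt1, a receptor for vascular endothelial growth factor (1.20, SE 0.29). Flt1 lost its call in DESeq2 and without lysate 1 or 3.

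The summed CPM of the smooth muscle and pericyte hosts was 326 to 498 in the inputs and 1644 to 2882 with U1, and no host of that list was at 0. For endothelial hosts the sum was 1086 to 1232 in the inputs and 2022 to 3437 with U1. In RNA of bulk tissue, the number of cells of a type and the RNA recovered per cell cannot be told apart. Red blood cell genes gave no tested host, and by own symbol 4 of their 11 annotated genes, the globin genes Hba-a1, Hba-a2, Hbb-bs and Hbb-bt, were at 0 in all naive libraries. Because the counted strand is unknown, a count of 0 does not show that their RNA was absent.

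**Figure D1:**
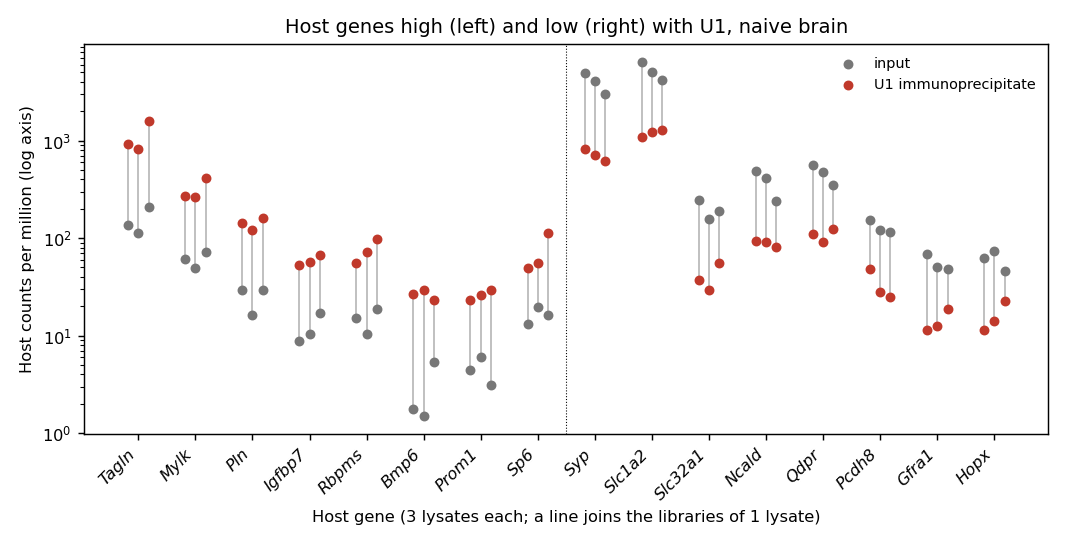
CPM of 16 named hosts on a log axis, in the 3 input libraries (grey) and the 3 U1 libraries (red) of naive brain, with a line joining the libraries of 1 lysate. For each host on the left the U1 values lie above all input values, for example 825 to 1585 against 114 to 208 for Tagln, and for each host on the right they lie below.

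The 15 hosts with the largest rises included 3 genes of the smooth muscle and pericyte list and others that rest on few counts; 8 are of the intron class, 6 are mixed and 1 is of the exon class. Bmp6, a secreted growth factor gene (chromosome 13, 38345107 to 38500302, plus strand), had 1.76, 1.5 and 5.43 CPM in the inputs and 26.8, 29.1 and 23.3 CPM with U1, at 1 to 56 counts a library. Its change was 3.01 (SE 0.50). Igfbp7, an insulin-like growth factor binding protein made by vessels, had 8.82, 10.5 and 17.1 CPM in the inputs and 53.5, 56.2 and 66.4 CPM with U1 (2.26, SE 0.31). Rbpms, an RNA-binding protein gene of contractile smooth muscle, had 15, 10.5 and 18.6 CPM in the inputs and 56.1, 72.3 and 96.9 CPM with U1 (2.31, SE 0.28). Prom1, the stem cell surface protein CD133, changed by 2.58 (SE 0.46), and Galnt15, which starts the addition of sugars to proteins, by 2.46 (SE 0.41). Trim14 (2.71, SE 0.53), Exoc3l (2.59, SE 0.48), Rasl12 (2.43, SE 0.49), Cped1 (2.41, SE 0.63), Sp6 (2.16, SE 0.29), Rad54b (2.16, SE 0.41) and Sh3tc1 (2.12, SE 0.34) complete the 15 largest. Cped1 lost its call in DESeq2 and without lysate 3, and the other 14 kept theirs under every alternative run.

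Among the hosts with the largest falls were genes of synapses, interneurons and astrocytes. Syp encodes synaptophysin, a membrane protein of synaptic vesicles (chromosome X, 7638471 to 7653256, plus strand). Its feature had 4889, 4055 and 3002 CPM in the inputs and 821, 718 and 619 CPM with U1. All 3 U1 values lay far below the lowest input value, and the log2 change was -2.45 (SE 0.16), with adjusted p = 1.67e-19 by edgeR's quasi-likelihood test. Slc32a1, the transporter that loads GABA into vesicles (chromosome 2, 158610767 to 158615748, plus strand), had 246, 159 and 189 CPM in the inputs and 36.9, 29.1 and 55.6 CPM with U1 (-2.27, SE 0.20). Slc1a2, the main glutamate transporter of astrocytes (chromosome 2, 102658659 to 102790784, plus strand), had 6421, 5033 and 4134 CPM in the inputs and 1094, 1221 and 1281 CPM with U1 (-2.09, SE 0.17). For Slc1a2 the inputs varied more than the U1 libraries, and the groups did not overlap.

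Other hosts among the 15 largest falls were Ncald, a neuronal calcium sensor (-2.03, SE 0.17), Qdpr, which regenerates tetrahydrobiopterin (-2.05, SE 0.17), and Pcdh8, an activity-regulated protocadherin (-1.97, SE 0.22). Drd5, a dopamine receptor gene that lacks introns in its coding part, changed by -2.16 (SE 0.46). Gfra1, the co-receptor for glial cell line-derived neurotrophic factor, changed by -1.92 (SE 0.30), and the homeobox gene Hopx by -1.90 (SE 0.30). Rpl22l1, B3gat2, Syndig1l, Acot11, Gal3st3 and Smim13 changed by -2.11 to -1.82. All 15 kept their calls under every alternative run. Of the 15, 11 are of the exon class (Slc32a1, Drd5, Rpl22l1, Qdpr, Ncald, Pcdh8, Gfra1, B3gat2, Syndig1l, Acot11 and Smim13), 3 are mixed and 1, Slc1a2, is of the intron class. The Slc1a2 feature spans a 5′ splice site of its host, so it holds exon bases too, and its fall cannot be assigned to intron RNA.

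Neuronal genes called as hosts went in both directions. Over all hosts tested, 7.48% were higher and 9.75% lower. Of 11 hosts from the general neuronal list, Syp and Map2 were lower, Rbfox3 was higher, and the median was -0.01. Map2, the gene of a dendritic microtubule protein, changed by -0.84 (SE 0.16), and Rbfox3, which encodes the splicing regulator NeuN, had 237, 287 and 287 CPM in the inputs and 498, 452 and 409 CPM with U1 (0.74, SE 0.15). Of 6 interneuron hosts, Slc32a1 and Reln, the gene of the secreted glycoprotein reelin (-0.96, SE 0.19), were lower and none was higher. Of 5 excitatory neuron hosts, Grin2b, a subunit of the NMDA receptor, was lower (-0.63, SE 0.15). Of 20 presynaptic hosts 3 were lower: Syp, the active zone scaffold Pclo (-1.29, SE 0.15) and the adhesion protein Nrxn2 (-0.49, SE 0.15). The median of the 20 was 0.02, close to that of all hosts. Of 10 postsynaptic hosts, Grin1 (-0.61, SE 0.16), Grin2b and Lrrc7 (-0.48, SE 0.16) were lower and the scaffold gene Shank2 was higher (0.60, SE 0.16). Lrrc7 lost its call without the replicate block, by library size, and without lysate 1 or 3. Grin1, Shank2 and Nrxn2 each lost their call without lysate 1 and without lysate 2. By own symbol the same lists were mostly negative: 12 of 15 general neuronal genes (median -0.34), 18 of 24 presynaptic genes (-0.31) and 18 of 23 postsynaptic genes (-0.33), against 5228 of all 10918 features. Few of these passed: 1 higher and 2 lower, 2 lower, and 3 lower, where 3.63% of all features were higher and 5.93% lower.

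Astrocyte hosts were low: 3 of 4 passed, with a median of -1.18 and summed CPM of 4442 to 6832 in the inputs against 1261 to 1485 with U1. The share lower was 9.75% over all hosts and 5.93% over all features. Beside Slc1a2, the astrocyte hosts that passed were Aldh1l1 and Fgfr3. Aldh1l1, a folate enzyme used as an astrocyte marker, had 101, 77.8 and 93.8 CPM in the inputs and 28, 26.5 and 30.5 CPM with U1 (-1.66, SE 0.24). Fgfr3, a growth factor receptor (-0.69, SE 0.17), lost its call without lysate 1. Oligodendrocyte hosts gave 3 tested genes and no call (median -0.31). Of 4 hosts of oligodendrocyte precursors Tnr, the gene of the matrix protein tenascin-R, was lower (-1.41, SE 0.21). The median of these 4 was 0.03, with 2 positive and 2 negative. By own symbol 6 precursor genes were tested and none was lower, while Gpr17, an intron feature of Lims2, was higher (1.97, SE 0.16). Mertk was the only microglial host tested and did not pass (-0.40, SE 0.41). By own symbol, none of 6 microglial genes passed, and Spi1, Itgam and Ctss were at 0, which does not show absence of their RNA while the counted strand is unknown. Of 11 astrocyte genes tested by own symbol, 3 were lower, Slc1a2, the glycolytic enzyme gene Aldoc (-2.53, SE 0.69) and the chaperone gene Clu (-2.02, SE 0.56), with a median of -0.94. Clu lost its call in DESeq2 and without lysate 1 or 2, and Aldoc without lysate 2. Of 10 oligodendrocyte genes, 3 were lower, among them the myelin protein gene Mobp (-1.85, SE 0.32).

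**Figure D2:**
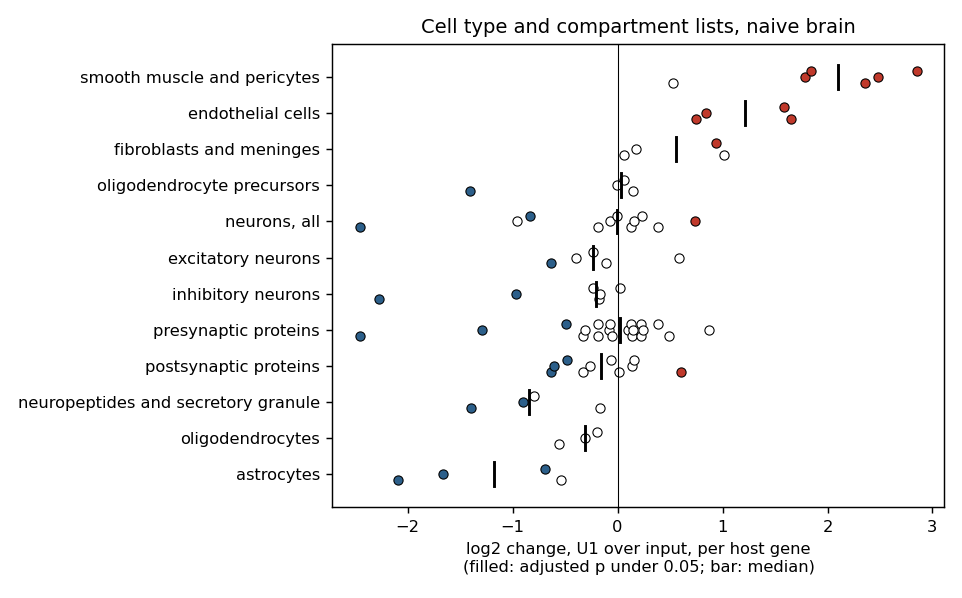
The log2 change from input to U1 RNA for hosts in 12 gene lists, each point 1 host, filled where adjusted p was under 0.05, with a bar at each list's median. Points of the smooth muscle and endothelial lists lie to the right of 0 and those of astrocytes to the left, whereas neuronal and synaptic hosts lie on either side.

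The direction of change differed with the part of the host that a feature overlaps. Of 422 exon features tested, 101 were lower (23.9%) and 11 higher (2.61%), with a median of -0.22. Of 2871 intron features, 130 were higher (4.53%) and 63 lower (2.19%), with a median of 0.09. Of 716 mixed features, 50 were higher (6.98%, the largest share of these 3 classes) and 106 lower (14.8%), with a median of -0.05. Features with no gene on the other strand were called in similar shares each way, 86 higher and 95 lower of 3362. Of the called intron features, 67.4% were higher, against 79.2% with scaling by library size. Without lysate 1 the lower exon features numbered 58 and the higher intron features 74, and without lysate 3 the latter were again 74. DESeq2 called 62 intron features higher.

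**Figure D3:**
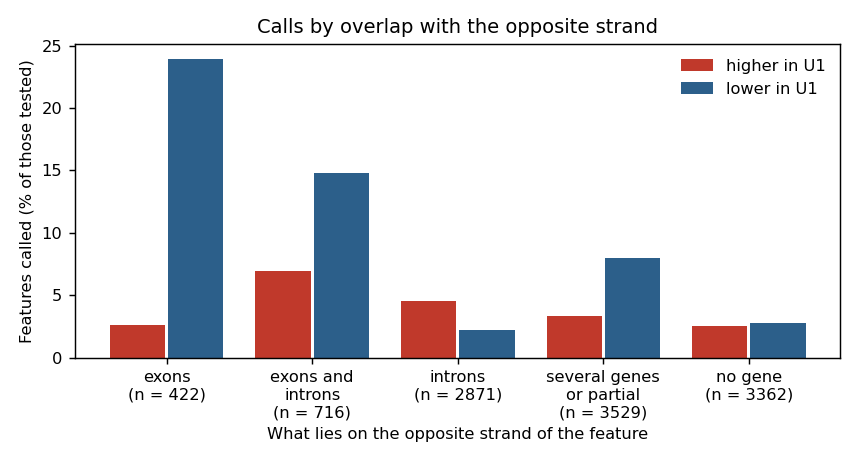
Percent of tested features called higher (adjusted p under 0.05) and lower in U1 RNA, by the class of overlap with a gene on the other strand, with the number tested. The lower bar is tallest for exon features at 23.9%, and intron features are the class with more higher than lower calls, 4.53 against 2.19%.

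Abundance differed between these classes and moved with the calls. Above the upper quartile of all features in mean log2 CPM (6.21) lay 188 exon features, of which 75 were lower (39.9%) and 2 higher. Below the lower quartile (4.09), 1 of 50 exon features was lower. Intron features above the upper quartile gave 51 higher and 47 lower of 819. The part of abundance in the class difference was not tested.

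Exon features were lowest near the 3′ end of the host. In the last 10% of the host's length, 56 of 132 exon features were lower (42.4%) and 1 was higher, with a median of -0.59. In the first 10%, 4 of 64 were lower and 4 higher, with a median of 0.03. Between them the medians were 0.06, -0.04, -0.15 and -0.24 going toward the 3′ end, the first of these over 22 features. Medians of intron features stayed between -0.02 and 0.14 in all 6 stretches, while those of mixed features went from 0.14 at the 5′ end to -0.28 at the 3′ end. The count of lower exon features in the last 10% was 33 without lysate 1 and 47 to 63 under the other alternatives, which were applied to it after the data had been seen.

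**Figure D4:**
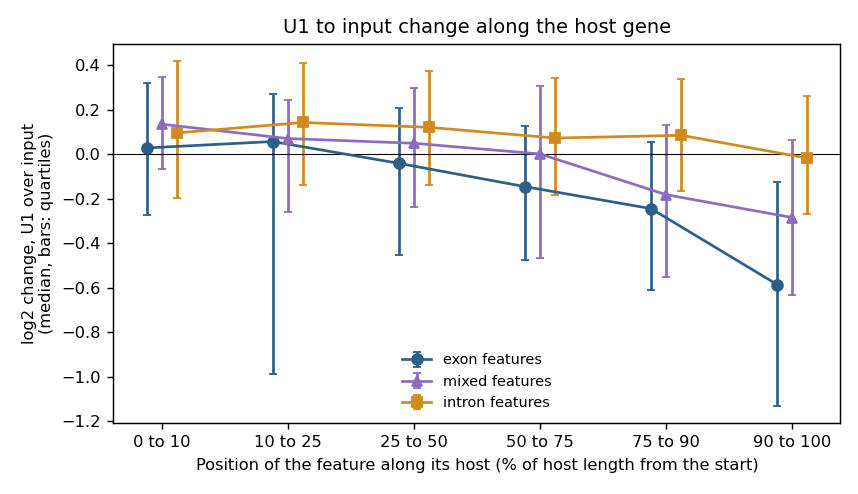
Median log2 change from input to U1 RNA, with bars from the lower to the upper quartile, by the position of a feature along its host from the 5′ end (0%) to the 3′ end (100%), for exon, mixed and intron features. The exon medians go from 0.03 in the first 10% to -0.59 in the last 10%, and the intron medians stay near 0.

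Among hosts of the exon class, median values were lower in longer genes. The median was -0.07 over 111 hosts up to 10 kb, -0.22 from 10 to 30 kb and -0.26 from 30 to 100 kb. It was -0.61 over the 24 hosts of 100 to 300 kb, of which 15 were lower, and -0.96 over 8 longer hosts, of which 4 were lower. Hosts of the intron class had medians of 0.01 to 0.15 in the same length ranges. Of 337 hosts of the exon class, 12 were higher. They included the transcription factor genes Sp6 (2.16), Foxf2 (1.30) and Foxq1 (1.13), the interferon-induced gene Ifi35 (1.71), the complement protease gene C1s1 (1.31), Fbn1, which encodes the matrix protein fibrillin-1 (1.04), the cell cycle inhibitor gene Cdkn1c (0.76) and the transglutaminase gene Tgm2 (0.54). Foxf2, known from brain pericytes, had 27.3, 15 and 17.8 CPM in the inputs and 33.1, 48.9 and 67.3 CPM with U1, so its groups did not overlap.

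Within single genes, intron features could be set against exon features in 85 hosts. The fit had a term for each library, and the ratios were not paired by lysate. The intron-to-exon ratio was higher in U1 RNA than in input in 59 of the 85, with a median log2 difference of 0.40. It passed edgeR's quasi-likelihood test upward in 13 hosts (15.3%) and downward in 1 (1.18%), D5Ertd579e (-0.97, SE 0.34; lost without any 1 of the lysates), with 16.5% called and 25 hosts at an unadjusted p under 0.05. Over these hosts the median log2 change was -0.28 for the exon features and 0.10 for the intron features. The number called was 3, 1 and 16 without lysates 1, 2 and 3, and 7 when a class needed 95% of the overlap.

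Grin2b, the NMDA receptor subunit gene named above, kept its call under every alternative (1.61, SE 0.28), none of which paired the ratio by lysate. In the inputs, 31.7, 43.9 and 47.0% of its exon and intron counts came from the intron feature, against 70.8, 67.5 and 65.3% with U1. The lower Grin2b total was on the exon side, whose mean went from 182 to 78.1 CPM, while the intron mean went from 127 to 166 CPM. Cacnb4, a calcium channel subunit gene (1.38, SE 0.28), had 9.24, 11.2 and 14.8% from introns in the inputs and 25.2, 28.5 and 21.9% with U1, and lost its call without lysate 2. Bnip3, a gene of mitochondrial turnover (1.36, SE 0.35), had 13, 17.3 and 23.9% and then 41.7, 33.9 and 32.7%, and lost its call without lysate 1 or 2. In all 3 genes the groups did not overlap. The largest differences were in Sppl3, a protease gene of the Golgi (2.06, SE 0.45), Dnajb14 (2.04, SE 0.51), Atp6v0a2 (2.04, SE 0.61), Bean1 (1.83, SE 0.58) and Usp29 (1.49, SE 0.37), and each of these lost its call without lysate 2, as did all but Usp29 without lysate 1.

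**Figure D5:**
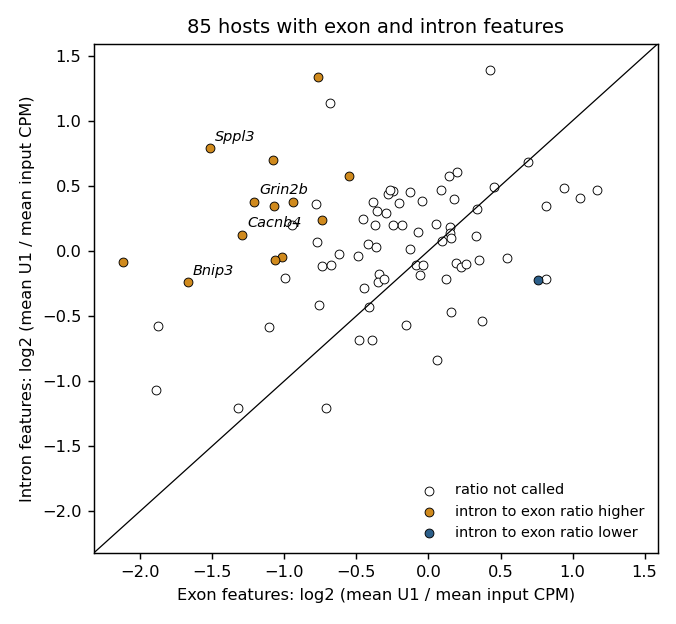
Log2 change of the intron features (vertical) against that of the exon features (horizontal) from input to U1 RNA in 85 hosts, with the 13 hosts whose ratio was called higher in orange and the 1 called lower in blue. The orange hosts lie above the diagonal, with Grin2b at -1.21 for exon features and 0.38 for the intron feature.

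The 5′ end of U1 RNA can be set beside the splice sites inside the features. The sequences below are shown because they are the element that U1 pairs with, in genes that rose and in genes that fell. The first is the start of the annotated U1 gene Rnu1a1 (DNA letters), with the 11 bases that hold its splice site pairing region in capitals. The others are the host strand, 10 exon and 20 intron bases, read as the reverse complement of the feature's transcript in GENCODE M21 (GRCm38). Capitals mark the 9-base site, that is the last 3 exon and first 6 intron bases. For each host the site with most matches to CAGGTAAGT, the complement of U1, is given.
Rnu1a1: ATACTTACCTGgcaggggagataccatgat
Tagln, higher, chr9:45930813-45930842, minus strand: ggtttatGAAGTATGTgtccactgggtctc
Pln, higher, chr10:53337786-53337815, plus strand: cgaagccAAGGTAAGAcgtgagatcattga
Mylk, higher, chr16:34953697-34953726, plus strand: ccgaaagCAGGTCAGTcgtggaagccgggt
Notch3, higher, chr17:32141197-32141226, minus strand: aggtgatCGGGTGAGTgactgtggctcagg
Acvrl1, higher, chr15:101130042-101130071, plus strand: tgggataCAGGTCAGTgccggcacatctgg
Slc1a2, lower, chr2:102737920-102737949, plus strand: ttaatcaCAGGTGAGAgctccttcccagtg
Aldh1l1, lower, chr6:90596964-90596993, plus strand: ttgctgaTGGGTATGTtatccaccatgact
Prkag1, lower, chr15:98815163-98815192, minus strand: caaatgcCAGGTAAGTactggttttgtgtt
C1ql3, lower, chr2:13010240-13010269, minus strand: aaacaacCAGGTGAGCgcgggcaggcagtg

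The site in Tagln, the host with the second largest rise, matched at 6 of 9 bases, as did the one in Aldh1l1, which fell. The sites in Mylk and Acvrl1, a receptor gene of endothelial cells (1.85, SE 0.24), matched at 8, and those in Pln, Notch3, Slc1a2 and C1ql3 at 7. Prkag1, a subunit gene of the energy sensor AMPK, held the full 9-base match and was lower (-1.59, SE 0.15). Over all 1515 sites with GT in 877 tested features, the mean number of matches was 6.31 ± 0.94 in higher features (SD over 135 sites), 6.28 ± 0.95 in lower ones (204 sites) and 6.20 ± 0.98 in those not called (1176 sites). These means differ by far less than the spread between sites. Exon features with a 5′ splice site inside had a median of -0.04 and 15 of 101 lower, against -0.29 and 86 of 321 without one. For intron features the order was the other way, with 37 of 378 lower where a site lay inside and 26 of 2493 where none did. An intron feature with a site inside also holds exon bases of its host, so these counts are not of introns alone. Higher calls were also more frequent with a site inside, at 27 of 378 against 103 of 2493 intron features. For exon features they were 6 of 101 against 5 of 321.

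Short motifs were counted on the host strand of intron features, which were not equal in length. GGTAAG occurred 0.21 times per kb in higher, 0.195 in lower and 0.17 in uncalled intron features. AATAAA, the common polyadenylation signal, occurred 0.49, 0.898 and 0.553 times per kb in the same order. The median GC content was 49.9, 45.5 and 47.2%.

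Read by compartment, features of the mitochondrial genome were low in U1 RNA. Of 13 mitochondrial mRNA genes, 7 had enough counts to be tested by own symbol. All 7 were lower, with log2 changes from -3.21 to -1.83 and a median of -2.44. With the counted strand unknown, these values cannot be assigned to the mRNAs themselves. mt-Nd1, a subunit of respiratory complex I, had 170.2, 230.3 and 132 CPM in the inputs and 19.1, 25 and 13.5 CPM with U1. mt-Nd5, another subunit of that complex, had 2386, 2586 and 2160 CPM and then 208, 570.4 and 288 CPM (-2.84, SE 0.21). U1 2 was the highest of the U1 libraries for both, and still below every input. The feature mt-Nd5 overlaps mt-Nd6. Mitochondrial genome features made up 0.39, 0.472 and 0.374% of gene counts in the inputs and 0.0534, 0.126 and 0.0606% with U1. The exact paired permutation test, two-sided, gave p = 0.25, the smallest that 3 pairs allow.

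Class shares of all counts depended on a few abundant RNAs. The ribosomal RNA feature CT010467.1 took 13.8, 14.6 and 15.6% of gene counts in the inputs and 17.3, 16.3 and 20.4% with U1. Exon features made up 22.7 ± 0.757% in input and 24.3 ± 1.59% with U1 (SD, n = 3). Without mitochondrial, ribosomal and small RNA genes these shares were 9.14 ± 0.415% and 7.47 ± 1.12%, so the direction reversed. Intron features went from 21.6 to 23.0% of all counts, and from 25.1 to 27.6% without those genes.

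By own symbol, features of genes whose mRNAs are known to be carried into dendrites were mostly low. Of 22 tested, 11 were lower and 2 higher, with a median of -1.11, against 0.03 over all features. Of all features, 5.93% were lower and 3.63% higher. With the counted strand unknown, these values cannot be assigned to the mRNAs themselves. Kif5a, a motor of axonal and dendritic transport, had 86.4, 230.3 and 92.2 CPM in the inputs and 26.8, 33.8 and 30.5 CPM with U1 (-2.10, SE 0.25). Input 2 stood out for Kif5a, but the other inputs also lay above every U1 library. The presynaptic scaffold gene Bsn (-1.73, SE 0.27), the spine protein genes Ppp1r9b (-1.85, SE 0.23) and Dlgap3 (-1.85, SE 0.33) and the microtubule protein gene Map1a (-1.27, SE 0.20) were also lower. Camk2a, Kif5c, Map2, Shank1 and Ddn were lower as well, of which Camk2a and Shank1 lost their call in DESeq2 and Map2 without lysate 2. Read by host, 6 genes of the same list were tested and 1, Map2, was lower, with a median of 0.05. Nrgn, which encodes the postsynaptic protein neurogranin, was higher, with 64.4, 65.8 and 79.8 CPM in the inputs and 135, 196 and 295 CPM with U1 (1.53, SE 0.19). Vsig2 lies 286 bases beyond the 3′ end of Nrgn. Of 4 secretory granule hosts 2 were lower (9.75% over all hosts), Pcsk2, a prohormone convertase gene (-0.90, SE 0.15), and Resp18 (-1.39, SE 0.29). Of 6 tested by own symbol 3 were lower: Pcsk1n (-2.72, SE 0.57), Cpe (-2.15, SE 0.48) and Vgf (-1.06, SE 0.25). Vgf lost its call in DESeq2 and without lysate 2 or 3, and Cpe without lysate 2.

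Features of RNAs known to stay in the nucleus did not share a direction. Of 17 nuclear long noncoding RNA genes tested by own symbol, 2 were higher and 1 lower, with a median of 0.25. Over all features 3.63% were higher and 5.93% lower. With the counted strand unknown, these values cannot be assigned to the RNAs themselves. Read by host, 11 were tested, with Airn higher, Snhg14 lower and a median of 0.01. Airn lost its call without lysate 2. Kcnq1ot1, the imprinted antisense RNA that silences its neighbours, had 61.7, 123 and 97.7 CPM in the inputs and 306, 386 and 420.1 CPM with U1 (2.02, SE 0.17). The feature Malat1, of nuclear speckles, rose by 0.60 (SE 0.18) with overlapping groups and lost its call under several alternatives, among them DESeq2 and the fit without the replicate block. The feature on the other strand of Malat1 did not pass (-0.36, SE 0.21). Snhg14, the host RNA of a small nucleolar RNA cluster, was lower in both readings (-0.81, SE 0.17, by own symbol and -0.55, SE 0.15, as a host). It lost its call without lysate 1 in both readings, and as a host also without lysate 3 and without the replicate block.

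The targeted particle itself was thinly covered. None of the 29 small structured RNAs listed was tested, and the U1 genes Rnu1a1, Rnu1b1, Rnu1b2 and Rnu1b6 were at 0 in all 6 libraries, so the recovery of U1 RNA could not be checked from these counts. Snrnp70, which encodes U1-70K, did not pass as a feature (0.73, SE 0.29) or as a host (-0.60, SE 0.23). For the list counts that follow, 3.63% of all features were higher and 5.93% lower, and 7.48 and 9.75% of all hosts. Of 9 U1 snRNP proteins and partners tested by own symbol, Prpf40b was higher (1.23, SE 0.20) and Prpf39 lower (-0.89, SE 0.20), the latter not without lysate 1. Of 15 splicing regulators tested as hosts, Rbfox3 was higher and Tra2a (-0.69, SE 0.16) and Hnrnpu (-0.59, SE 0.15) were lower, Hnrnpu not without lysate 1, and none of 22 passed by own symbol. Of 15 cleavage and polyadenylation factors tested by own symbol, Pcf11 (-0.74, SE 0.18) and Fip1l1 (-0.55, SE 0.16) were lower and Cstf2t was higher (0.79, SE 0.15). Cstf2t lies in an intron of Prkg1, so its counts are part of that host's sum, which was higher (0.82, SE 0.16) and is not a separate result. Fip1l1 lost its call in 7 alternatives, among them each fit without 1 lysate, and Pcf11 without lysate 1 or 3. Very long neuronal genes, a group that U1 is known to protect from early ends, had a median of 0.04 over 36 hosts, with Prkg1 and Csmd2 higher and Cadm2 and Sorcs1 lower. Csmd2 and Sorcs1 lost their calls in DESeq2, without a filter on low counts and without lysate 1 or 2, and Sorcs1 also by library size.

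Among features with no assigned host, the largest fall was in Ccdc107 (chromosome 4, 43492900 to 43495921, plus strand). It had 1637, 1843 and 1108 CPM in the inputs and 72.6, 97.8 and 135 CPM with U1, a log2 change of -3.89 (SE 0.23) and 14.9-fold lower. Ccdc107 overlaps Rmrp, the RNA of the nuclear and mitochondrial ribonuclease MRP, on the opposite strand, and Rmrp was itself at 0. Pter had 976, 868 and 513 CPM in the inputs and 85.4, 144 and 56.5 CPM with U1 (-3.06, SE 0.18). The 3′ end of Pter lies 1 base from that of C1ql3, a secreted synaptic protein gene that was lower as a host (-1.55, SE 0.15). The other large falls were in mt-Nd1, mt-Nd5, mt-Ty, mt-Ts1, Nop9 (-3.0, SE 0.42), which overlaps Cideb, and Pcsk1n, which overlaps Eras. The fall of mt-Ts1 lost its call without lysate 3.

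The largest rises without a host included vascular genes. Gja4, the connexin 37 gene of arterial endothelium, had 3.53, 2.99 and 5.43 CPM in the inputs and 12.7, 28.1 and 44 CPM with U1 (2.72, SE 0.47), and lost its call without lysate 3. Vamp8, a vesicle fusion gene (2.79, SE 0.54), the DNA repair gene Nthl1 (2.52, SE 0.34), Bcas3 (2.43, SE 0.63), Cmss1 (2.42, SE 0.43) and the histamine receptor gene Hrh2 (2.40, SE 0.46) were also higher, with the long noncoding RNA gene Bvht (2.47, SE 0.21), as was Myh11. Nthl1 starts 49 bases from the start of Tsc2, and Cmss1 overlaps Filip1l. Bcas3, like Gja4 and Myh11, lost its call without lysate 3, and Bcas3 lost it in DESeq2 too.

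In stimulated animals, most of the hosts called in naive brain had the same sign. Of the 231 hosts higher in naive U1 RNA, 224 were tested in the MECS libraries, where 221 were positive, 166 were called higher and none lower (17.8% of 3169 hosts called, 8.8% higher and 8.96% lower). Of the 301 lower hosts, all were tested, 294 were negative, 220 were called lower and none higher. The MECS libraries do not share samples with the naive ones. No host ratio of U1 to input differed between MECS and naive brain by edgeR's quasi-likelihood test of the interaction, with 169 of 3302 at an unadjusted p under 0.05, and 1 of 12184 features did.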

How the data were processed

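Libraries were made with a stranded total RNA kit with ribosomal RNA depletion and read as 100 bp single ends, per the labels' protocols. The submitters' processing notes name Trimmomatic 0.39, FastQC, HISAT2 2.2.0, StringTie 2.1.3, Salmon 1.4, DESeq2 and the build mm10, and no source used here names the program that counted reads or its strand setting. The authors deposited raw counts per gene identifier. The closing lines of each table, which name no gene, were left out (88.3 to 91.3% of listed reads lay in no feature).

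Of 55471 identifiers, 55230 matched GENCODE M21, which gave positions, 8067 features with a host and 5709 hosts. Counts were fitted with edgeR 4.0.16 (R 4.3.3), quasi-likelihood test, TMM scaling, filterByExpr, the lysate as a block and Benjamini-Hochberg adjustment at 0.05. The pairing comes from the sample names and the protocol, in which input and precipitate share a lysate. Residual correlations of the same-numbered libraries were 0.0103, -0.1061 and -0.0192. Hosts were fitted on summed counts with the scaling of the features. The intron-to-exon fit had a term for each library in place of the lysate block, and did not pair the ratios by lysate. Tables used Python 3.11.15 with pandas 2.3.3 and scipy 1.17.1. The alternative test was DESeq2 1.42.0.

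The genes named are the 15 hosts and 8 features without a host with the largest called changes in each direction, at a mean log2 CPM of at least 3, with all 3 pairs in 1 direction and no overlap. To these were added up to 6 hosts and 4 features from each of 27 gene lists, and 8 hosts by intron-to-exon ratio, which needed 10 counts in each class. A few others (Acvrl1, Prkag1, C1ql3 and the higher hosts of the exon class) were added with their values known. The members and lists were chosen with earlier results of these data known. On simulated counts for this comparison, 60 of 100 features changed by a log2 of 1 and 95 of 99 changed by a log2 of 2 were recovered, with 10 false calls among 10404 features tested. The changed features were drawn only from those above a minimum total count, and the simulated lysates did not differ. Recovery among features with few counts was therefore not tested.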

Additional observations from a re-analysis of the deposited data

Results flagged for a closer look

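The ratio of U1 to input RNA for the feature Ccdc107 differed between stimulated and naive brain, by 1.88 on the log2 scale (SE 0.30, adjusted p = 0.00721 by edgeR's quasi-likelihood test of the interaction, over 12184 features). In naive brain the log2 change was -3.89, and after MECS it was -2.02. The MECS inputs held 945 ± 521 CPM and the MECS U1 libraries 213 ± 13.7 CPM (SD, n = 3), against 1529 ± 379 and 102 ± 31.2 CPM in naive brain. Ccdc107 overlaps Rmrp on the other strand, and the part of Rmrp in this difference was not tested.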

How the results depend on the processing

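Without the replicate block 1141 features (458 higher, 683 lower) and 495 hosts (219 and 276) were called, MECS hosts fell from 563 to 351, and the hosts Lrrc7 and Snhg14 and the feature Malat1 lost their calls. DESeq2 called 628 features, 334 hosts and 62 higher intron features. With all 12 libraries in the fit, 1456 features and 196 higher intron features were called. Leaving out 1 lysate gave 566 to 1063 features, 342 to 453 hosts, 74 to 103 higher intron features, 58 to 99 lower exon features, 33 to 56 lower exon features in the last 10% of the host, 1 to 16 intron-to-exon calls and 260 to 441 MECS hosts. With a class at 95% of the overlap, 7 intron-to-exon ratios were called. The U1 minus input difference in the exon share of counts was 1.58 percentage points and reversed to -1.67 without mitochondrial, ribosomal and small RNA genes. A host cover of 90% gave 398 hosts, and scaling from the host table, chosen after seeing the data, 541. No named gene reversed, and 46 of 60 named hosts and 31 of 54 named features that were called kept their calls under every alternative run. The cause of the changes was not tested, beyond fewer libraries in the fits that left out a lysate. Gene counts of 704432 to 1962312 limit rare transcripts.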
